A study of Homo sapiens with 6 samples.

Results

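The subject here is the baseline transcriptome of a human kidney cell line transfected with an empty vector, the group labelled mock. It was measured on 2 of the 6 arrays of the series, those whose description reads mock. Of the other 4 arrays, 2 came from cells transfected with a construct labelled hIMP1 wt and 2 from cells transfected with one labelled hIMP1 Dmut. IMP1 is the RNA-binding protein encoded by IGF2BP1. The labels neither name the cell line nor explain Dmut, and all 6 samples were transfected, so no untreated cells are among them. Nothing says that the samples of a group came from separate cultures, so any spread between arrays may be technical. Each sample's total RNA was read on a separate 1-colour oligonucleotide array, which gave 54675 intensities, each the summary of a set of short probes against 1 transcript or a few.

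A cell in culture makes the transcripts of the machinery that every dividing cell needs and, beside them, a selection of the lineage and signalling genes of its origin. Which of these are present decides which ligands, hormones and drugs the cell can answer, and makes such a profile the reference for any transfection done in it. The mature kidney is recognised by the transporters and channels of the segments of its tubule, and by the slit diaphragm proteins of the podocyte, the filtering cell of the glomerulus. The embryonic kidney is recognised by the transcription factors of its mesenchyme and of the ureteric bud.

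An array has no true zero, so a limit was set for background. It was the 95th percentile, on each array, of 199 probe sets for 167 genes of restricted tissues: olfactory and bitter taste receptors, keratin-associated and late cornified envelope proteins, interferon alpha, defensins and gamma crystallins. The limit was 42.1 on mock replicate 1 and 35.7 on mock replicate 2, while the median of these reference probe sets was 11.2 and 9.18. A probe set was taken as above background when it passed the limit on both arrays, and a gene when its brightest probe set with a single gene symbol did. Of the reference probe sets themselves, 4 of 199 did so. Below, the 2 values given for a gene are the deposited intensities on mock replicate 1 and mock replicate 2, in that order. The brightness of a probe set also depends on its probes, so an order of intensities is an order of signals, not of transcript numbers. With 2 arrays, the spread of any single gene is poorly known.

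**Figure D1:**
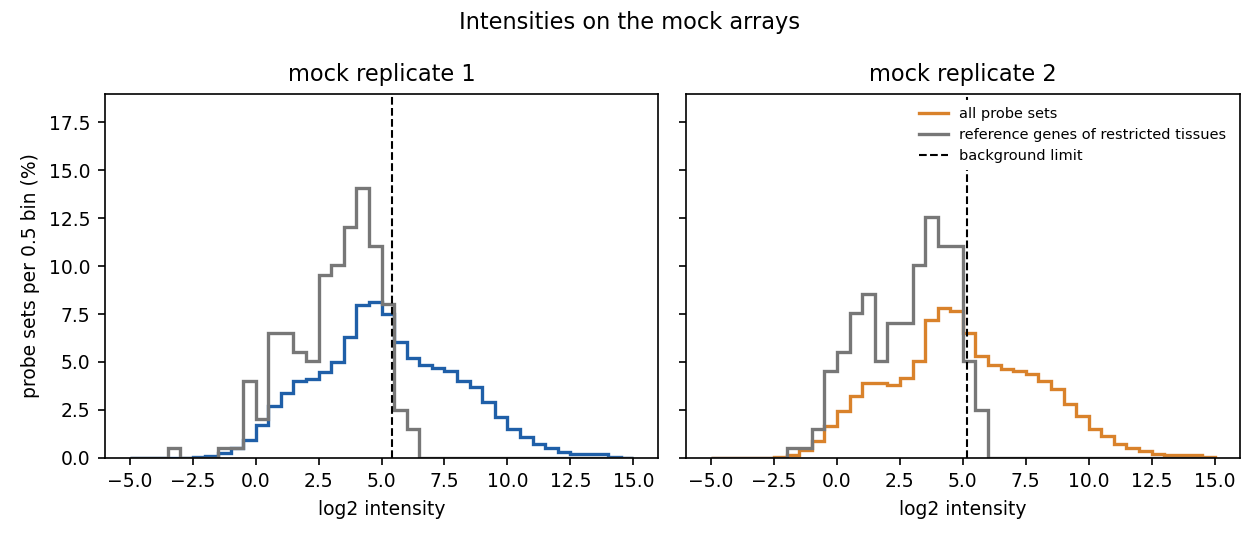
Share of probe sets (percent per 0.5 unit of log2 intensity) against log2 intensity on mock replicate 1 (left) and mock replicate 2 (right), for all probe sets without controls (coloured) and for the 199 reference probe sets (grey); the dashed line is the limit for background, 42.1 on the left and 35.7 on the right. The reference probe sets end near the limit, while all probe sets have a long shoulder to its right.

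Of 19740 genes measured by at least 1 probe set with a single symbol, 10823 (54.8%) were above background and 8917 were not. The share was 62.5% of 16500 protein-coding genes, 13.5% of 2644 long non-coding RNA genes and 29.2% of 418 transcribed pseudogenes. By the lower of the 2 arrays, 1757 genes lay between 1 and 2 times the limit, 5065 between 2 and 10 times, 3752 between 10 and 100 times and 249 further up. The mock arrays correlated at r = 0.968 (Pearson, log2 scale) across the 22352 probe sets above background, and 3.17% of these differed by over 2-fold. Across all probe sets r was 0.895, and 47.9% of those not above background differed by over 2-fold. Probe sets are not independent replicates, and both arrays share the design of their probes.

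The brightest signals came from the protein synthesis machinery and from the mitochondrial genome. Of the 50 genes with the highest mean log2 intensity in mock, 36 encode proteins of the cytosolic ribosome and 5 are encoded by mitochondrial DNA. The first in this order was COX1, the mitochondrially encoded catalytic subunit of cytochrome c oxidase, at 22145 and 26007. Another subunit of the same enzyme, COX2, gave 20577 and 24148. ND4 and ND2 encode subunits of complex I, the entry point of electrons into the respiratory chain. ND4 gave 19411 and 21813, and ND2 gave 15613 and 21200.1. ATP6, a subunit of the proton channel of ATP synthase, gave 15822 and 20510.2. All 5 were higher on replicate 2.

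Proteins of the small ribosomal subunit, which reads the mRNA, followed closely. RPS10 gave 19116 and 23919 and RPS16 gave 19089.5 and 22312. RPS23, which lies near the decoding centre, gave 18107 and 23175. For RPS19, a gene mutated in Diamond-Blackfan anaemia, the intensities were 17386 and 23750.3. RPS4X, encoded on the X chromosome, gave 18647 and 21888. RPS18, RPS14 and RPS15 are core proteins of the same subunit. Their intensities were 16253 and 20677 for RPS18, 15967 and 20012 for RPS14 and 14006 and 20592 for RPS15. All of these probe sets were higher on replicate 2.

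Large-subunit proteins, which surround the site of peptide bond formation, were also among the 50. RPL39, which lines the exit tunnel, gave 18304 and 21432. RPL31 gave 16687 and 23263 and RPL37A gave 16016 and 21246. RPL41, among the shortest proteins known in human cells, gave 15512 and 20933. RPLP1, of the acidic stalk that recruits elongation factors, gave 16522 and 19527, and RPL23A gave 15193 and 19157. EEF1A1, the elongation factor that delivers aminoacyl-tRNA to the ribosome, gave 17862 and 20912. Ribosomal protein genes have many processed pseudogenes, and many of these probe sets carry a suffix for probes shared with other transcripts, so their signals may contain related transcripts. Of the 50 genes, 32 stayed among the 50 when a gene was given the median of its probe sets in place of the brightest.

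The remaining 8 of the 50 were, besides EEF1A1 and in the order of their signals, NACA, UBB, GAPDH, NPM1, TPT1, HSPD1, PPIA and YBX1. NACA, a chaperone of nascent chains at the ribosome, gave 14646 and 17713. UBB, a polyubiquitin gene, gave 14844 and 17162. NPM1, a nucleolar protein of ribosome assembly, gave 13497 and 17642. TPT1 encodes the translationally controlled tumour protein. It gave 14005 and 16472. GAPDH, of glycolysis, gave 13663 and 17437. HSPD1 is the mitochondrial chaperonin, and it gave 13065 and 17164. PPIA, the target of ciclosporin, gave 12371 and 16987, and YBX1, an mRNA-packaging protein, gave 12641 and 14177.

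**Figure D2:**
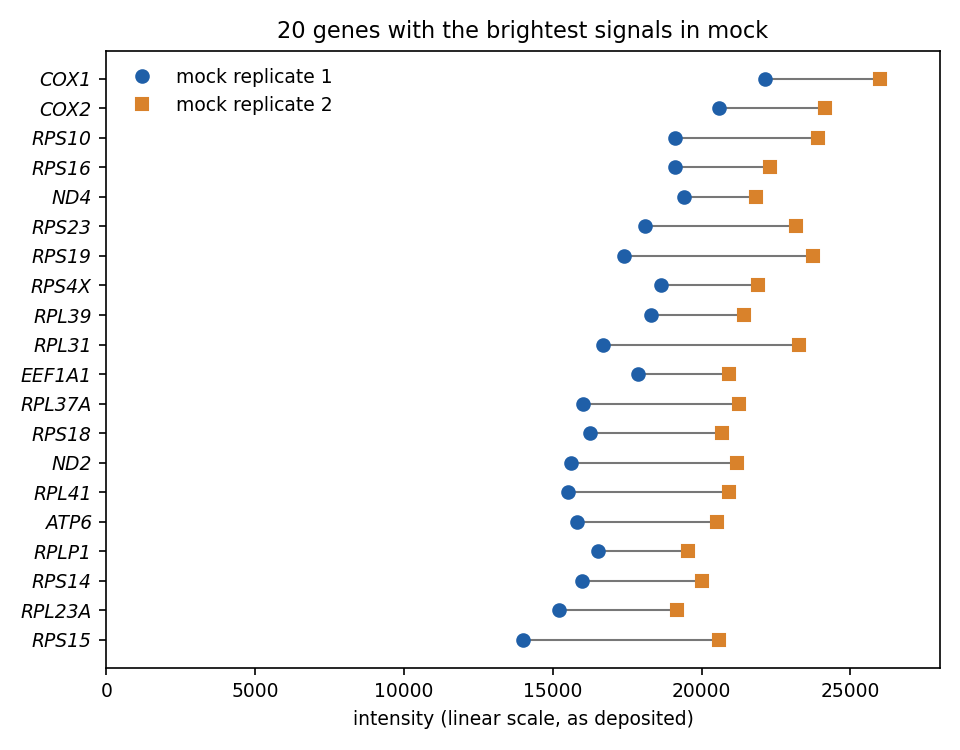
Intensity (linear scale, as deposited) of the 20 genes with the brightest signals in mock, 1 row a gene, with a circle for mock replicate 1, a square for mock replicate 2 and a line between them. COX1 leads at 22145 and 26007, and every gene plotted lies higher on replicate 2.

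All 50 genes were higher on replicate 2, by a median of 1.27-fold (0.34 on the log2 scale), and their probe sets held 5.34% of the summed signal on replicate 1 and 6.22% on replicate 2. After quantile scaling, an alternative added after seeing the data, the median log2 ratio was -0.00991. Quantile scaling gives both arrays the same distribution of intensities, and with it the difference in these genes was gone. The medians over all probe sets went the other way, at 32.6 on replicate 1 and 28.6 on replicate 2.

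Messenger RNAs of the translation machinery are known for a 5′ terminal oligopyrimidine tract, a C at the first base followed by a run of C and T, through which their translation is controlled by the mTOR pathway. The promoter table from RefSeq (GRCh38.p14) held 40 of the 50 genes. A tract was counted where a run of at least 5 bases of C and T, starting with C, began within 5 bases of the annotated start on the transcript's strand. It was found for 30 of the 40 (75%), and for 26 of the 31 ribosomal protein genes (83.9%). The same letters were found at 21.1% of 27305 promoters in the table, at 22.8% of genes above background and at 21% of genes not above it. A match is a description of the sequence and not evidence of a functional site. The windows below, of 10 bases before the start and 20 from it, belong to the 12 brightest genes with an entry and are shown to let the tract be seen; the capitals mark it.
RPS10: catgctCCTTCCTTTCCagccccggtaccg
RPS16: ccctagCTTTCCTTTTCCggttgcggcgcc
RPS23: cggtgCTTCTCTCTTTCgctcaggcccgtg
RPS19: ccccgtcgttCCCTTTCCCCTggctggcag
RPS4X: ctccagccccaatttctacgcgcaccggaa
RPL39: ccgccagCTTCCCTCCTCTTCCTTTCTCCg
RPL31: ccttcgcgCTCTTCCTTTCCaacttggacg
EEF1A1: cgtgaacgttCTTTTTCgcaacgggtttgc
RPL37A: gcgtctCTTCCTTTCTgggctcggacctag
RPS18: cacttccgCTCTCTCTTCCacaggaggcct
RPL41: cttcgCCTTTCTCTCggccttagcgccatt
RPLP1: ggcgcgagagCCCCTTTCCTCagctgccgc
Of these 12 genes, 11 had a tract by this rule, from 7 bases in EEF1A1 to 22 in RPL39, and RPS4X had none. In GRCh38.p14 the windows lie at chr6:34426050-34426079 for RPS10 (reverse strand), chr19:39435930-39435959 for RPS16 (reverse strand), chr5:82278335-82278364 for RPS23 (reverse strand), chr19:41860245-41860274 for RPS19 (forward strand), chrX:72277229-72277258 for RPS4X (reverse strand), chrX:119791611-119791640 for RPL39 (reverse strand), chr2:101002279-101002308 for RPL31 (forward strand), chr6:73521013-73521042 for EEF1A1 (reverse strand), chr2:216498834-216498863 for RPL37A (forward strand), chr6:33272065-33272094 for RPS18 (forward strand), chr12:56116623-56116652 for RPL41 (forward strand) and chr15:69452808-69452837 for RPLP1 (forward strand).

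The lists of housekeeping machinery were above background almost throughout, with 225 of 228 measured genes (98.7%), against 54.8% of all genes. Genes of DNA replication and of mitosis were above background in 18 of 18 and 18 of 18. TYMS, thymidylate synthase, gave 5089 and 7818. RRM2, the subunit of ribonucleotide reductase that cycling cells induce, gave 4826 and 5098. PCNA is the sliding clamp of the replication fork, and MCM6 belongs to the replicative helicase. PCNA gave 4645 and 4694, and MCM6 gave 3897 and 3597. CDK1, the kinase that drives entry into mitosis, gave 3319.6 and 4541. Its partner CCNB1, a B-type cyclin, gave 2538 and 2983. NUSAP1 binds spindle microtubules, and TOP2A untangles replicated DNA. They gave 2229 and 2312 and 1653 and 2493, respectively.

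Families that were not lists of this kind followed the same division. All 75 measured mitochondrial ribosomal proteins and all 32 complex I subunits named NDUF were above background. Of 34 genes counted as proteasome subunits by their symbols 31 were, and those that were not were PSMA8, PSMD5 and PSMB8. Whether each of the 34 encodes a part of the finished proteasome was not checked. PSMA8 is a subunit of the testis form and PSMB8 one of the immunoproteasome, which interferon gamma induces. PSMB8 gave 1.23 and 1.26 and PSMA8 gave 1.49 and 19.4. PSMD5, which belongs to neither of these forms, gave 2.25 and 12.6, with none of its 2 probe sets above background. The subunits PSMA4 and PSMB1 of the core particle gave 6220.3 and 6583 and 5609.5 and 6385, respectively. Ubiquitin-specific peptidases were above background in 41 of 45, RAB GTPases in 43 of 57, and the large ZNF class of zinc finger genes in 352 of 466 (75.5%).

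Where an enzyme has tissue-specific forms, some lists divided by isoenzyme and others were above background throughout. Both hexokinases of growing tissues were above background, HK2 at 659 and 544 and HK1 at 453 and 724. HK3, the form of white blood cells, was not, at 3.40 and 2.52. Of the pyruvate kinases PKM was above background at 2712 and 3548, and PKLR, the liver and red cell form, was not, at 9.43 and 4.04. Aldolase signals came from ALDOA, the ubiquitous form, at 7536 and 9944 and ALDOC, the brain form, at 57.8 and 116. Among the creatine kinases the brain form CKB gave 2879 and 3439, and the muscle form CKM gave 3.15 and 2.65. The muscle form therefore lay at background.

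All 3 enolases and all 3 lactate dehydrogenases measured were above background. ENO1 gave 10587 and 11613, while the neuronal form ENO2 gave 174 and 225 and the muscle form ENO3 gave 79.5 and 67.9. LDHB and LDHA make up the common tetramers, and LDHC is known as the testis form. LDHB gave 11407 and 15204, LDHA gave 11668 and 14359 and LDHC gave 298 and 271. EEF1A2, the elongation factor of neurons and muscle, was above background beside EEF1A1, at 699 and 611. Of 8 measured genes of gluconeogenesis, the making of glucose in liver and proximal tubule, 2 were above background. These were the ubiquitous phosphatase G6PC3 at 821 and 1026 and the mitochondrial carboxykinase PCK2 at 248 and 485. The glucose transporters SLC2A1 and SLC2A3 were above background, at 195 and 196 and 112 and 209. SLC2A2, the transporter of liver and proximal tubule, was not, at 4.72 and 0.478. Without the probe sets of suffixes _x_at and _s_at 0 of 4 glucose transporters were above background, against 2 of 5. Without mock replicate 1 the creatine kinases above background numbered 2 of 3, with CKMT2 the addition.

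The kidney of the labels was checked against markers of the adult nephron. Of 52 measured markers of 5 segments, 7 (13.5%) were above background, and of 42 markers of the tubule 2 (4.76%) were. None of 15 proximal tubule markers was above background. The highest of them was LRP2, encoding the endocytic receptor megalin, at 30.7 and 39.1, above the limit on replicate 2 only. The lowest was SLC5A12, a lactate transporter, at 1.33 and 5.59. Of the thick ascending limb, 1 of 6 measured markers was above background, the tight junction protein CLDN19 at 90.4 and 40.5. Among 8 markers of the distal convoluted tubule 1 was, CNNM2, a magnesium transport protein, at 84.1 and 98.9. None of 13 collecting duct markers was above background. The highest, SLC4A1, the anion exchanger of acid-secreting cells, gave 35.7 and 40.7, and the water channel AQP2 gave 27.6 and 40.4. On single arrays these counts moved by a few genes: replicate 2 alone placed 1 proximal tubule, 2 thick limb and 3 collecting duct markers above its limit, and replicate 1 alone 1 collecting duct marker. In RNA of a whole culture, fewer cells of a type and less RNA per cell cannot be told apart.

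Of 10 podocyte markers 5 were above background, a share near that of all genes. PTPRO, a receptor phosphatase of the podocyte surface, gave 4164 and 4655, on 1 of its 3 probe sets. PODXL, encoding podocalyxin of the podocyte's coat, gave 252 and 391. WT1, a transcription factor of kidney development, gave 223 and 142, and NPNT, a matrix ligand of integrins, gave 113 and 134. NPHS1, encoding the slit diaphragm protein nephrin, lay at background, at 1.44 and 3.52, and TCF21, a transcription factor of podocytes, did too, at 2.69 and 2.54. When at least 50% of a gene's probe sets had to pass, 3 of the 10 remained above background.

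Markers of the embryonic kidney, most of them transcription factors, were above background in 11 of 19 measured (57.9%), near the 54.8% of all genes, where those of the adult tubule had 4.76%. POU3F3, of the developing loop of Henle, gave 927 and 982. FOXD1, which marks the stromal progenitors of the embryonic kidney, gave 604 and 603. CITED2, a transcriptional coregulator, gave 505 and 557, and GATA3, of the nephric duct and collecting duct, gave 465 and 392. All 4 were above background on all 6 arrays of the series. IRX3, PAX8, SALL1, CITED1, EMX2, EYA1 and SIX2 were the others above background. PAX8, of the nephric lineage, gave 177 and 157, on 1 of its 8 probe sets, and SIX2, of the nephron progenitors, gave 42.6 and 62.5. PAX2, which marks the nephric lineage from its start, was not above background at 26.7 and 22.9, nor was OSR1 at 34.4 and 22.2. RET, the receptor through which GDNF guides the ureteric bud, gave 16.9 and 50.1 and passed its limit on replicate 2 only. Dropping the probe sets with shared probes (suffixes _x_at and _s_at) left 15 measured and 7 above background.

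**Figure D3:**
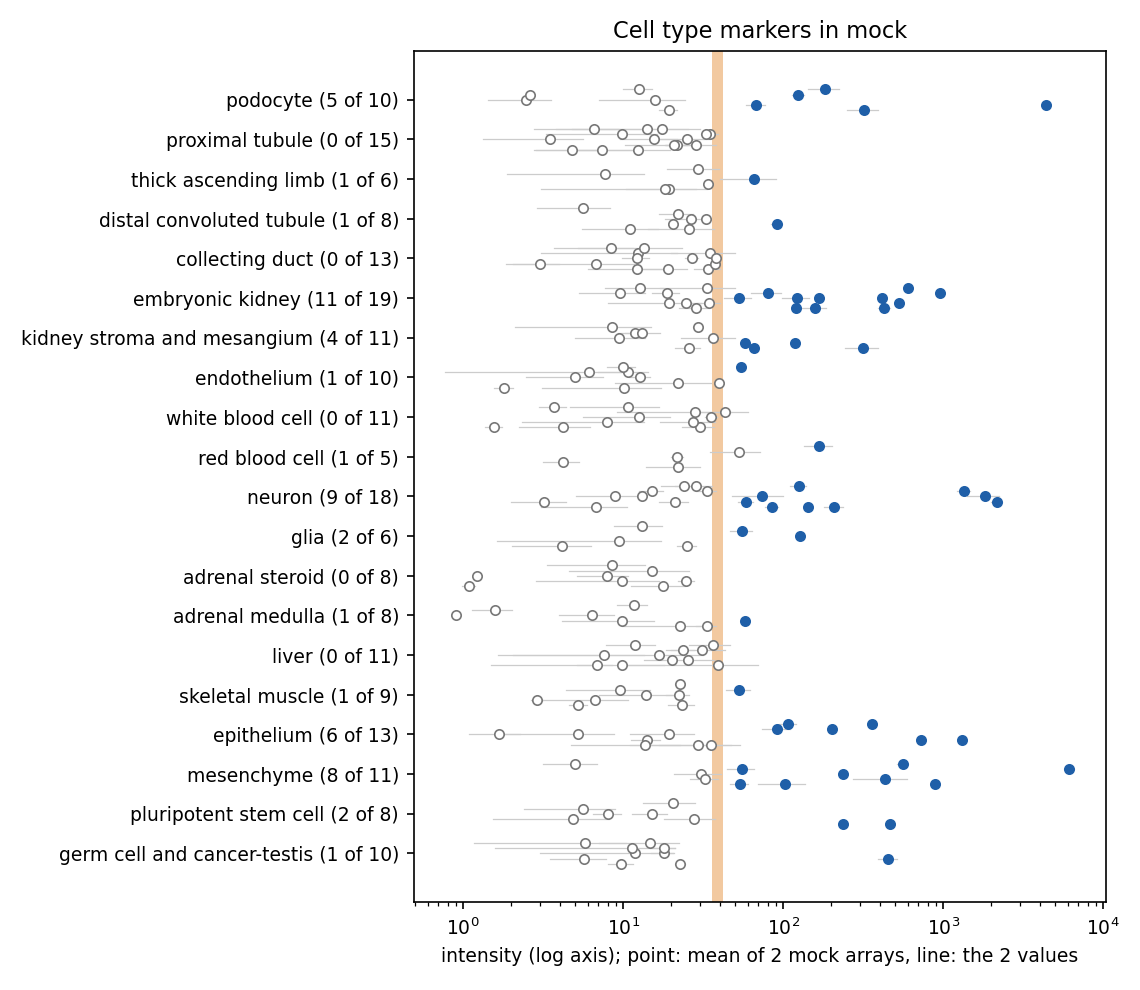
Intensity (log axis) of each measured marker of 20 cell types and states in mock, 1 row a list, with the counts above background in the row names. A point is the mean of the 2 mock arrays (blue above background, open not), a grey line joins the 2 values, and the orange band spans the limits 35.7 to 42.1. The proximal tubule, collecting duct, white blood cell, adrenal steroid and liver rows hold open points alone, while embryonic kidney, neuron, epithelium and mesenchyme also hold points well to the right of the band.

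Markers of neurons were above background in 9 of 18. TUBB3, the beta-tubulin of neurons, gave 1976 and 2338. UCHL1, a ubiquitin hydrolase abundant in brain, gave 1409 and 2215. NEFL, the light neurofilament subunit, gave 1227 and 1465 and all 3 of its probe sets were above background. Peripherin, a neuronal intermediate filament encoded by PRPH, gave 179 and 237. SYT1, INA, INSM1, SNAP25 and MAP2 were also above background. Other defining neuronal genes lay at background, among them ELAVL3, an RNA-binding protein of neurons, at 1.97 and 4.41 and doublecortin (DCX) at 3.04 and 10.5. The neuronal list was thus divided, and cytoskeletal genes made up 3 of its 4 brightest signals. Without the probe sets of shared suffixes 4 of 15 were above background. Adrenal medulla, an origin that shares genes with neurons, had 1 of 8 markers above background, CHGB, encoding a granin of secretory granules, at 61.0 and 55.0. None of 8 markers of adrenal steroid cells was above background, and CYP11A1, the first enzyme of steroid synthesis, gave 1.19 and 0.977. The part of any such cell type in these cultures was not tested.

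Markers of blood, liver, muscle and vessels lay largely at background. None of 11 white blood cell markers was above it, and CD14, the monocyte coreceptor, gave 1.36 and 1.74. The highest was MS4A1, encoding CD20 of B cells, at 60.5 and 26.1, above the limit on replicate 1 only. None of 11 liver markers was above background, and FGB, the beta chain of fibrinogen, gave 13.5 and 1.66. Skeletal muscle had 1 of 9, the troponin gene TNNT1 at 43.7 and 61.8. Endothelium had 1 of 10, the VEGF receptor FLT1 at 53.2 and 55.5. The red blood cell list had 1 of 5, SLC25A37, a mitochondrial iron importer, at 202 and 134. Of the glia list, MBP and OLIG2 were above background, 2 of 6, MBP at 130.0 and 124 and OLIG2 at 64.0 and 46.4. On replicate 2 alone 1 white blood cell, 1 liver and 2 endothelial markers passed, and on replicate 1 alone 2 white blood cell, 2 liver and 2 red blood cell markers. With the 99th percentile as the limit, or without the probe sets of shared suffixes, none of the muscle and endothelial markers was above background.

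Of the kidney stroma and mesangium list 4 of 11 were above background. ACTA2, smooth muscle actin, gave 245 and 388, on 1 of its 3 probe sets, and COL1A1, the alpha 1 chain of collagen I, gave 125 and 112. TBX18 gave 63.6 and 66.9 and the integrin ITGA8 gave 59.7 and 55.2. When at least 50% of a gene's probe sets had to pass, none of the 4 remained. Pluripotency genes were above background in 2 of 8. SOX2 gave 465 and 461 on 3 of its 4 probe sets above background, and the DNA methyltransferase DNMT3B gave 226 and 247. NANOG, a core pluripotency factor, lay at background at 2.40 and 8.87. Of the germ cell and cancer-testis list 1 of 10 was above background, PRAME at 394 and 511.

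Some genes of both the epithelial and the mesenchymal list were above background. The mesenchymal list had 8 of 11 above it (72.7%) and the epithelial list 6 of 13 (46.2%), against 54.8% of all genes. VIM, the intermediate filament vimentin, gave 5688 and 6611. CDH2, encoding N-cadherin, gave 871 and 906, and ZEB1, a repressor of epithelial genes, gave 599 and 517. Fibronectin (FN1) gave 273 and 595, which places it among the 3.17% of probe sets above background that differed by over 2-fold between the arrays. Of the epithelial genes, KRT18 and KRT8 form the filament pair of simple epithelia. KRT18 gave 1252 and 1356 and KRT8 gave 371 and 343. OCLN, the tight junction protein occludin, gave 743 and 700.2, and the adhesion molecule EPCAM gave 202 and 203. CDH1, encoding E-cadherin, was not above background, at 16.7 and 54.0, with replicate 1 below its limit. KRT19, a keratin of simple and ductal epithelia, lay at background at 2.27 and 1.08. Without the probe sets of shared suffixes 5 of 8 mesenchymal and 3 of 8 epithelial genes were above background.

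Families of adhesion and cytoskeletal genes differed in their shares above background. Of 19 cadherins measured 3 were: CDH2, CDH11 at 148 and 214 and CDH22 at 105 and 63.4. CDH11 is a cadherin of mesenchyme. On replicate 2 alone, 5 were above the limit. Claudins, which seal tight junctions, had 5 of 20 above background, with CLDN12 at 380.2 and 473, CLDN15 at 229 and 198 and CLDN1 at 114 and 118; under the 99th percentile as the limit 3 remained. Of 18 keratins 4 were above background, and besides KRT18 and KRT8 these were KRT10 at 1628 and 1259 and KRT7 at 109.9 and 73.5. KRT10 is a keratin of the upper epidermis. Without probe sets of suffix _x_at 2 of 16 keratins were above background, and without both suffixes 1 of 12. The clustered protocadherins, which give neurons their surface identity, had 1 of 36 above background. Laminins had 6 of 10, with LAMC1 at 765 and 824 and LAMB1 at 499 and 557, both chains of basement membrane laminin. Collagens had 17 of 43, and the chains of basement membrane collagen IV, COL4A2 and COL4A1, gave 377 and 659.6 and 344 and 443. Beta-tubulins were above background in 7 of 8, the exception being TUBB1, the platelet form, at 22.2 and 7.27.

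The promoters of genes above and not above background differed in base composition. Over the 250 bases before the start, the median ratio of observed to expected CG dinucleotides was 0.837 for 8985 genes above background and 0.404 for 6373 genes not above it. It was 0.556 over all 27305 promoters and 0.128 over 133 promoters of the restricted reference genes. GC content had medians of 65.6% and 56.8%, respectively. The letters GGGCGG, the core of the GC box, stood on either strand in 68.7% and 38.9% of them, against 42.3% of all promoters. TATAAA, searched on either strand from 40 to 20 bases before the start, was found in 1.64% and 5.79%, against 2.97% of all and 17.3% of the reference promoters. CCAAT, on either strand, was found in 35.8% and 31.6%, against 33% of all. These are descriptions of promoter sets with many genes and no replicates, and they carry no test. A match is letters in a window and says nothing of binding.

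Windows of the 100 bases before the start show the range of CG content for 3 marker genes above background (VIM, TUBB3, POU3F3) and for 3 not above it (LRP2, CYP2E1, CSF1R), each the highest of its list with an entry; capitals mark each CG.
VIM: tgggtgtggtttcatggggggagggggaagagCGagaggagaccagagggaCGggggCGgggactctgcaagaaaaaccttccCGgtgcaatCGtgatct
TUBB3: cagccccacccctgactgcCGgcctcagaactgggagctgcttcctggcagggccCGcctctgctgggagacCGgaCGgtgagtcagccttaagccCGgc
POU3F3: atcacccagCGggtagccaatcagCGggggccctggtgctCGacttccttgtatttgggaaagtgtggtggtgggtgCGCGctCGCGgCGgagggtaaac
LRP2: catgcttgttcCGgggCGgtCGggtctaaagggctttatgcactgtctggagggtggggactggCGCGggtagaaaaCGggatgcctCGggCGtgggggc
CYP2E1: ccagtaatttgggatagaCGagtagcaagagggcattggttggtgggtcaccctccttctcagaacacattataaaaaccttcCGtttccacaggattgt
CSF1R: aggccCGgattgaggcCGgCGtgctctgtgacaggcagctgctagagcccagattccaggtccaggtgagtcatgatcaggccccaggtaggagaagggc
The windows held 5 CG for VIM, 5 CG for TUBB3, 8 CG for POU3F3, 8 CG for LRP2, 2 CG for CYP2E1 and 3 CG for CSF1R. LRP2, not above background by the rule for both arrays but above the limit on replicate 2, had as many CG as POU3F3. A gene so near the limit cannot be placed on either side of it. Whether CG content divides at the limit therefore cannot be read from these windows. In GRCh38.p14 they lie at chr10:17228141-17228240 for VIM (forward strand), chr16:89921825-89921924 for TUBB3 (forward strand), chr2:104854015-104854114 for POU3F3 (forward strand), chr2:169362535-169362634 for LRP2 (reverse strand), chr10:133527263-133527362 for CYP2E1 (forward strand) and chr5:150113366-150113465 for CSF1R (reverse strand).

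HOX genes encode the homeodomain transcription factors that set position along the body axis, and they lie in 4 clusters in which the paralogue number runs with the position of expression. In mock, 23 of 28 measured HOX genes (82.1%) were above background. The HOXB cluster had 8 of 10, HOXC 8 of 9 and HOXD 7 of 8. HOXB3 gave 527 and 516 and HOXB2 gave 596 and 339, both of the anterior end of the series. HOXB6 gave 438 and 346 and HOXB9 gave 297 and 237, of trunk levels. HOXB13, the most posterior of its cluster, was above background at 68.6 and 95.1. The lowest HOXB member was HOXB1 at 7.12 and 3.48. The other HOXB member not above background, HOXB8, lay close to the limits at 38.3 and 37.9.

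In the HOXC cluster HOXC6 gave 781 and 667. HOXC4 gave 186 and 188, HOXC10 gave 171 and 198 and HOXC9 gave 168 and 173. HOXC12 alone of the 9 lay at background, at 8.59 and 8.85, between HOXC11 and HOXC13, which were above it. Of the HOXD cluster, HOXD10 gave 517 and 721 and HOXD13 gave 303 and 339, with all 3 probe sets of each above background. HOXD11 gave 179 and 164 and HOXD8 gave 126 and 133. HOXD12 was the lowest at 1.51 and 0.878. In each of these 2 clusters the member of paralogue number 12 was the single one at background among those measured. Of the HOXA cluster 1 gene, HOXA2, was analysed, and it was not above background, at 40.05 and 31.2; 10 others were not analysed here. With the 99th percentile as the limit, HOXC fell to 5 of 9 above background.

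**Figure D4:**
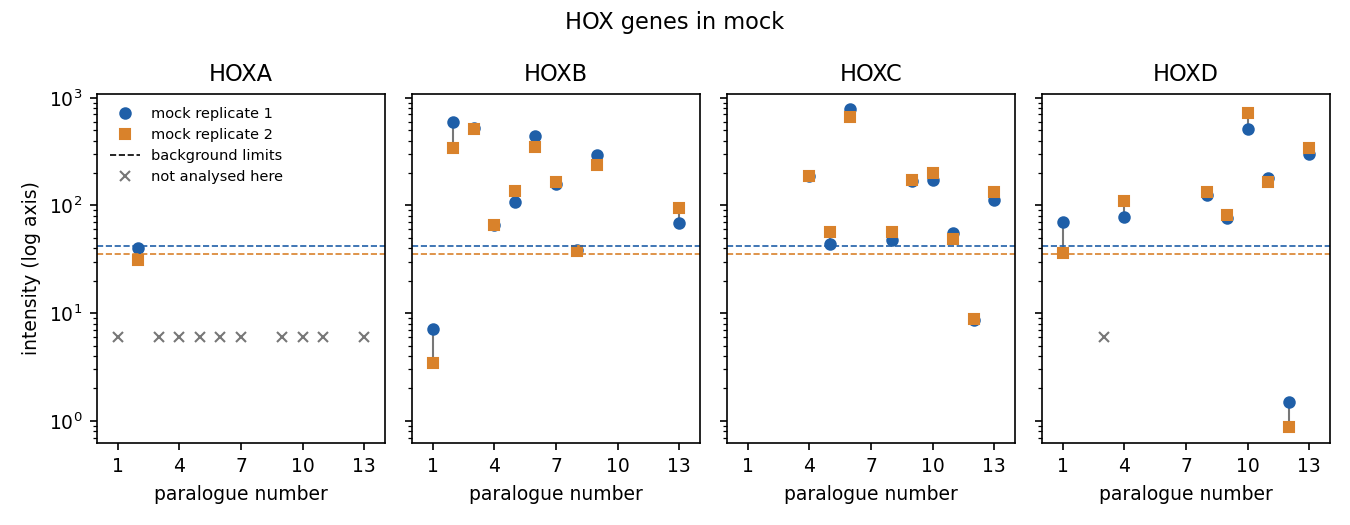
Intensity (log axis) in mock of each HOX gene by paralogue number, 1 panel a cluster, with a circle for mock replicate 1, a square for mock replicate 2, a line between them, dashed lines for the 2 limits and a cross at an arbitrary height for a gene not analysed here. In the HOXB, HOXC and HOXD panels most genes lie above both lines, and HOXB1, HOXC12 and HOXD12 lie far below them.

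Other developmental factors were above background by gene rather than by family. Of 19 SOX genes 8 were, with SOX4, a factor of progenitor cells, at 2084 and 3274 and SOX9, of cartilage and of the ureteric bud, at 130.0 and 157. SOX2 and SOX5 were also among the 4 highest, SOX5 at 157 and 144. PAX genes had 4 of 9 above background: PAX6 at 464 and 574, PAX8, PAX3 at 194 and 133 and PAX9 at 47.2 and 70.6. PAX6 is known for the eye and pancreas, and PAX3 for neural crest and muscle progenitors. GATA factors had 4 of 6, with GATA6 at 853 and 572, GATA2 at 281 and 187 and GATA4 at 135 and 115 beside GATA3. GATA1, of the red cell lineage, gave 23.7 and 19.8, at background. Where at least 50% of a gene's probe sets had to pass, 5 SOX and 2 PAX genes remained.

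Signalling genes were sorted by role. Ligands were above background in 30 of 87 (34.5%) and receptors in 107 of 269 (39.8%). Intracellular transducers were in 83 of 102 (81.4%). The list of Notch targets and cofactors, which mixes both roles, was in 11 of 13 (84.6%). The shares to set beside these are 54.8% of all genes and 62.5% of protein-coding genes. Receptors divided by kind. Receptor tyrosine kinases of 6 lists were above background in 29 of 52 (55.8%), G-protein-coupled receptors of 4 lists in 12 of 98 (12.2%) and nuclear receptors in 27 of 39 (69.2%). The lists differ in size and in how many probe sets each gene has, and the shares carry no test.

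**Figure D5:**
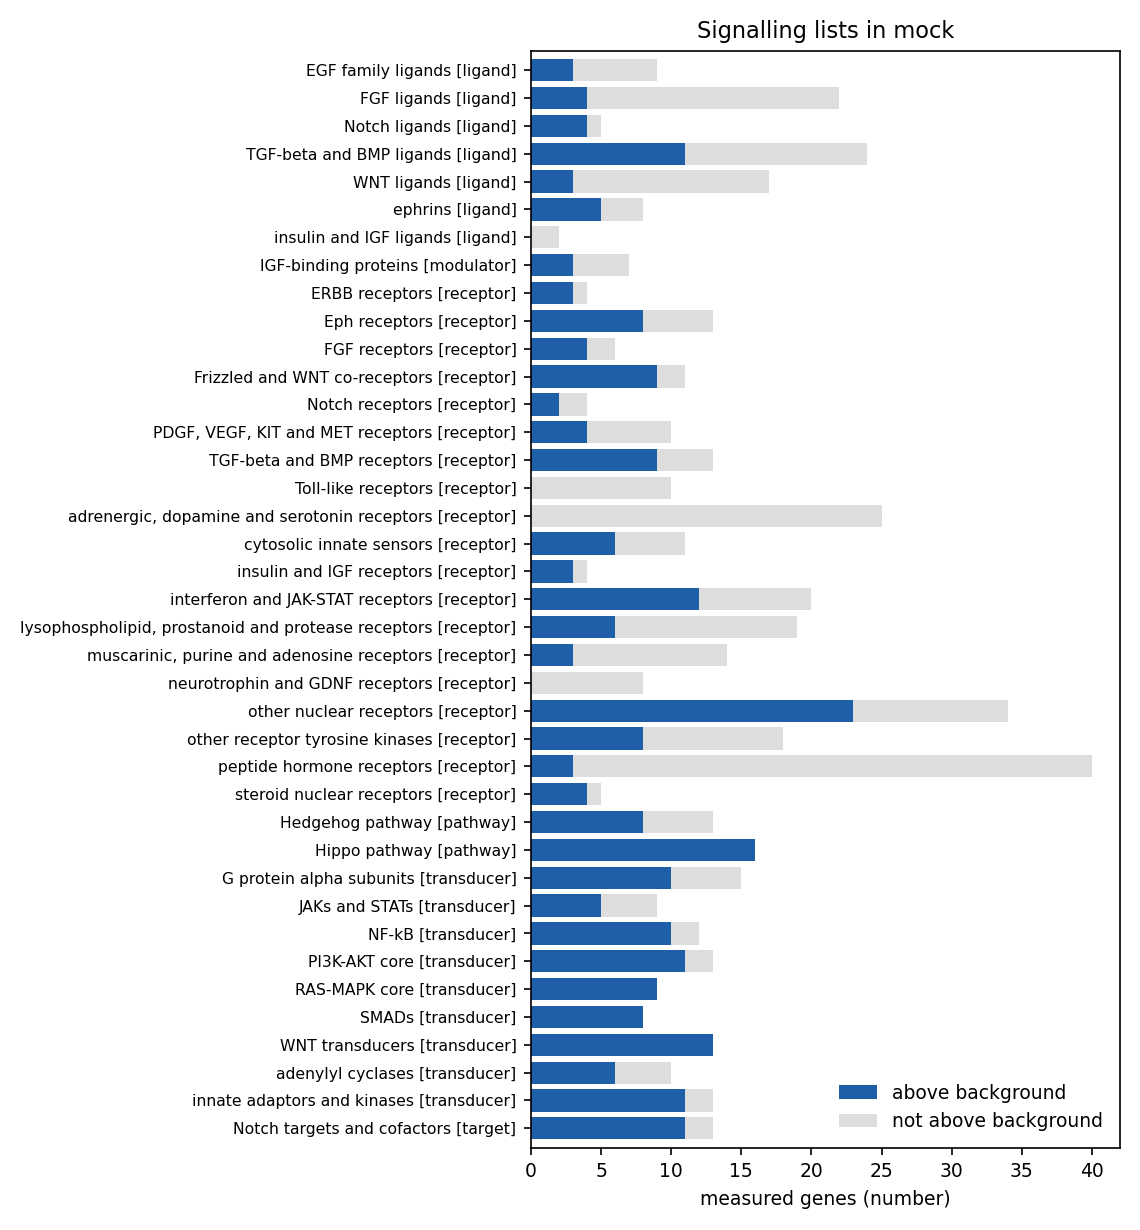
Number of measured genes of each signalling list that were above background in mock (blue) and not above it (grey), 1 bar a list, with the role of the list in brackets and ligands at the top. The bars of WNT transducers, SMADs, RAS-MAPK core and the Hippo pathway are blue throughout. Those of adrenergic, dopamine and serotonin receptors, Toll-like receptors, neurotrophin and GDNF receptors and the insulin and IGF ligands are grey throughout. The bar of insulin and IGF ligands holds IGF1 and INS alone, without IGF2.

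Ligands of growth factor receptors were mostly at background. Of the EGF family 3 of 9 were above it, HBEGF at 101 and 92.3, NRG2 at 45.5 and 59.5 and NRG3 at 43.9 and 56.0. HBEGF is the heparin-binding ligand of EGFR, and neuregulins bind ERBB3 and ERBB4. Of 22 FGF genes 4 were above background, and the brightest, FGF13 at 802 and 769, encodes an intracellular protein that is not secreted and binds sodium channels. The secreted FGF9 gave 157 and 147 and FGF2 gave 78.2 and 51.2. Neither IGF1 nor insulin was above background, IGF1 at 56.5 and 15.9 and INS at 0.96 and 1.14. IGF1 passed the limit on replicate 1. The remaining ligand of this list, IGF2, was not analysed here, so its level is not known from these counts. IGF-binding proteins, which hold IGFs in the medium, had 3 of 7 above background, IGFBP2 at 355 and 554, IGFBP5 at 321 and 575 and IGFBP7 at 90.1 and 97.7. Under the 99th percentile 1 EGF family ligand remained above the limit.

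The receptors of these ligands were above background more widely. Of the ERBB family ERBB2 gave 148 and 176, ERBB4 gave 112 and 179.6 and EGFR gave 81.0 and 109. ERBB3, the kinase-impaired partner of ERBB2, gave 35.3 and 51.8 and was above its limit on replicate 2 only. All 4 FGF receptor kinases were above background. FGFR3 gave 373 and 489, FGFR2 gave 187 and 264, FGFR1 gave 142 and 147 and FGFR4 gave 62.6 and 121. KL, encoding the coreceptor klotho that tubule cells use for FGF23, lay at background at 8.42 and 0.96. The insulin and IGF receptors INSR and IGF1R gave 141 and 205 and 388 and 403. IGF2R, which clears IGF2 and carries lysosomal enzymes, gave 396 and 492. When at least 50% of the probe sets had to pass, 2 of the 6 genes of the FGF receptor list remained.

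Of the PDGF, VEGF, KIT and MET list 4 of 10 were above background. MET, the receptor of hepatocyte growth factor, gave 669 and 864 with all 4 of its probe sets above background. FLT4, a VEGF receptor of lymphatic vessels, gave 182 and 164, and KIT, the receptor of stem cell factor, gave 83.0 and 151. Eph receptors, which respond to ephrins on neighbouring cells, had 8 of 13 above background, and ephrins 5 of 8. EPHA7 gave 407 and 528 and EPHA3 gave 227 and 275. EPHB4 and its ligand ephrin B2 were both present above background. EPHB4 gave 219 and 236 and EFNB2 gave 617 and 559. RYK, a WNT-binding pseudokinase, gave 913 and 877, the highest of 18 other receptor tyrosine kinases, of which 8 were above background. None of 8 neurotrophin and GDNF receptors was above background; on replicate 2 alone 3 passed, and on replicate 1 alone 1. Of the Eph receptors 5 remained by the rule of 50% of the probe sets.

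WNT ligands act through Frizzled receptors and LRP co-receptors to stabilise beta-catenin, or through other branches. Of 17 WNT genes 3 were above background, WNT5A at 407 and 459.6, WNT5B at 70.8 and 94.1 and WNT6 at 119 and 45.2. WNT5A and WNT5B are known mainly for branches independent of beta-catenin. Frizzleds and co-receptors had 9 of 11 above background. FZD6 gave 488 and 457, LRP6 gave 318 and 568, FZD5 gave 270.4 and 356 and FZD3 gave 294 and 315. The lowest was FZD9 at 5.34 and 40.3, above its limit on replicate 2 only. On that array alone all 11 passed. All 13 intracellular transducers were above background. CTNNB1, beta-catenin itself, gave 1827 and 1916. Its DNA-binding partners TCF7L2 and LEF1 gave 1116 and 1178 and 472 and 484, and the kinase GSK3B, which marks beta-catenin for destruction, gave 466 and 458. On replicate 2 alone 5 WNT ligands were above the limit, and by the rule of 50% of the probe sets 1 was.

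Notch receptors are cleaved on contact with a ligand of a neighbouring cell and turn on HES and HEY repressors through RBPJ. JAG1, the ligand, gave 753 and 873, and JAG2 gave 233 and 311; DLL3 and DLL1 were also above background, at 98.6 and 113 and 80.6 and 89.5, for 4 of 5 ligands. NOTCH2 gave 696 and 729 and NOTCH1 gave 92.1 and 103. The lowest receptor, NOTCH4, gave 27.1 and 36.6, and NOTCH3 was also not above background. Of the targets and cofactors 11 of 13 were. HEY1 gave 1764 and 2112, HES1 gave 1055 and 1449 and HES4 gave 892 and 1024. RBPJ, the DNA-binding partner, gave 781 and 1168. On replicate 2 alone all 4 Notch receptors passed the limit.

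In the Hedgehog pathway, no measured ligand was above background, while the receptor PTCH1, the transducer SMO and 2 of the GLI factors were. SHH gave 37.0 and 21.5 and DHH gave 10.7 and 17.9. PTCH1, the receptor and a transcriptional target of the pathway, gave 262 and 336, and SMO, the transducer it holds in check, gave 98.6 and 97.4. The co-receptor GAS1 gave 401 and 415. GLI3 and GLI2, the transcription factors that end the pathway, gave 208 and 193 and 141 and 122, while GLI1, a target that marks its activity, gave 48.5 and 14.6 and was above its limit on replicate 1 only. SUFU, which holds GLI factors in the cytoplasm, was not above background, at 30.1 and 56.7, with replicate 1 below its limit. In all 8 of 13 were above background, and 2 by the rule of 50% of the probe sets.

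The TGF-beta superfamily had 11 of 24 ligands, 9 of 13 receptors and all 8 SMADs above background. BMP7, which the developing nephron needs, gave 207 and 283, and BMP2 gave 216 and 201. GDF7 gave 93.7 and 187 and BMP6 gave 115 and 137. Myostatin (MSTN), the brake on muscle growth, had the lowest value at 0.224 and 0.369. The type I receptors TGFBR1 and ACVR1B gave 597 and 596 and 518 and 633, and the type II receptors ACVR2B and BMPR2 gave 348 and 453 and 296 and 259. SMAD9, SMAD5 and SMAD1 carry the BMP branch of the signal. SMAD9 gave 912 and 842, SMAD5 gave 806 and 869 and SMAD1 gave 708 and 422. SMAD4, the partner common to both branches, gave 642 and 426. With the 99th percentile as the limit 6 ligands remained.

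The Hippo pathway restrains growth by keeping YAP1 and WWTR1 out of the nucleus, and all 16 of its measured genes were above background. YAP1 gave 859.9 and 845 and its DNA-binding partner TEAD1 gave 588 and 813. WWTR1, the relative of YAP1, gave 494 and 632, and the kinase cofactor MOB1A gave 885 and 778. All 9 core genes of the RAS-MAPK cascade were above background too, with MAP2K1 at 856 and 784, MAP2K2 at 574 and 810.2 and HRAS at 638 and 575. Of 13 genes of the PI3K-AKT core 11 were. PIK3R3, a regulatory subunit of PI3K, gave 625 and 613, and the kinase PDPK1 gave 622 and 511. The 2 not above background were PIK3CD and PIK3CG, the catalytic subunits of white blood cells, at 21.6 and 39.0 and 8.35 and 0.697.

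Innate immune receptors were counted in 2 lists, by the place where they sense, with no test between them. None of 10 Toll-like receptors, which sense microbes at the membrane or in endosomes, was above background; TLR3 was the highest at 21.0 and 53.5 and TLR4 the lowest at 1.66 and 2.55. Each array alone placed 1 of the 10 above its limit, TLR3 on replicate 2 and TLR7 on replicate 1. The list of cytosolic sensors and their adaptors had 6 of 11 above background (54.5%), near the 54.8% of all genes, and 4 under the 99th percentile; most of it serves the sensing of nucleic acids. EIF2AK2, the kinase PKR that stops translation on double-stranded RNA, gave 609 and 665. MAVS, the adaptor of RNA sensors on mitochondria, gave 199 and 317, and STING1, the adaptor of DNA sensing, gave 116 and 151. NOD1, a sensor of bacterial peptidoglycan, gave 94.8 and 86.4. The DNA sensor CGAS was not above background, at 17.0 and 45.2, with replicate 1 below its limit. Downstream, 11 of 13 adaptors and kinases were above background, with IRAK1 at 2959.5 and 2686, TBK1 at 522 and 439 and IRF3 at 275 and 272.

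Of the cytokine receptors of the JAK-STAT type 12 of 20 were above background, and of JAKs and STATs 5 of 9. The interferon gamma receptor chains IFNGR1 and IFNGR2 gave 940.4 and 738 and 546 and 845. IL6ST, the gp130 chain shared by interleukin-6 type cytokines, gave 817 and 736, and LIFR gave 435 and 477. IL6R, the chain specific for interleukin-6, was not above background at 25.5 and 33.7. JAK1 gave 444 and 703, STAT3 gave 502 and 422 and TYK2 gave 247 and 369. Of the NF-kB list 10 of 12 were above background, with the kinase CHUK at 621 and 487 and the subunit RELA at 525 and 418; without the probe sets of shared suffixes 3 of 7 were. The cytokines themselves were mostly at background. Of 37 interleukins 4 were above it, the highest mean being 53.3, and of 34 chemokines 1 was, CXCL16 at 105 and 125. Of 14 chemokine receptors 1 was above background, CXCR4 at 67.5 and 152, with all 3 of its probe sets.

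Nuclear receptors bind steroids, vitamins and lipids and act as transcription factors. The glucocorticoid receptor NR3C1 gave 1052 and 1088, with all 5 of its probe sets above background. The mineralocorticoid receptor NR3C2, which in the distal nephron answers aldosterone, gave 128 and 171. ESR1 and PGR, receptors of oestrogen and progesterone, were close to the limit, at 53.7 and 47.6 and 46.1 and 36.9, and neither passed with the 99th percentile as the limit. ESR2 was not above background, at 36.6 and 17.2. Of 34 other nuclear receptors 23 were above background. NR1D2, a repressor of the circadian clock, gave 996 and 721. The orphan receptors NR2F6, NR2C2 and NR2C1 gave 479.8 and 625, 529 and 477 and 440.4 and 438, in that order. By the rule of 50% of the probe sets 14 of the 34 remained.

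Among the G-protein-coupled receptors, 12 of 98 were above background. None of 25 adrenergic, dopamine and serotonin receptors was above it, and the highest, HTR4, a serotonin receptor, gave 41.8 and 77.8, with replicate 1 below its limit. Of 40 peptide hormone receptors 3 were above background: EDNRB, an endothelin receptor, at 76.0 and 81.6, VIPR1, a receptor of vasoactive intestinal peptide, at 55.5 and 54.1 and SSTR3, a somatostatin receptor, at 62.2 and 39.0. Muscarinic, purine and adenosine receptors had 3 of 14. ADORA2B, a Gs-coupled adenosine receptor, gave 320.0 and 317. CHRM3, a Gq-coupled muscarinic receptor, gave 127 and 166 with 5 of its 6 probe sets above background, and P2RY1, an ADP receptor, gave 98.0 and 129. The lysophospholipid, prostanoid and protease receptors had 6 of 19 above background. F2R, the thrombin receptor PAR1, gave 340.3 and 204. PTGER4, a prostaglandin E receptor, gave 186 and 231, and the lysophosphatidic acid receptors LPAR3 and LPAR1 gave 105 and 103 and 107 and 84.9. Each array alone placed 2 of the 25 amine receptors and 6 of the 40 peptide receptors above its limit.

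The G proteins and enzymes that serve these receptors were above background more widely than the receptors. The shares of the lists below ran from 56.2% to 66.7%, near the 54.8% of all genes and 62.5% of protein-coding genes. Of 15 G protein alpha subunits 10 were above background. GNAS, encoding Gs alpha, gave 7946 and 10671. GNAI3 gave 1697 and 1722, GNA13 gave 1388 and 1477 and GNAQ gave 565 and 659.8. GNAI3 is of the class that inhibits adenylyl cyclase, and GNAQ of the class that acts on phospholipase C. Adenylyl cyclases had 6 of 10 above background, with ADCY3 at 259 and 337 and ADCY9 at 234 and 249. ADCY2, at 42.1 and 42.4, lay at the limit of replicate 1. The genes of store-operated calcium entry and IP3 receptors, which follow Gq, had 9 of 16. TRPC1 gave 291 and 233, ORAI2 gave 292 and 205, and the IP3 receptors ITPR3 and ITPR2 gave 122 and 226 and 166 and 139.

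Channels of excitable cells were mostly at background. None of 18 voltage-gated sodium and calcium channel genes was above it, and the highest, SCN9A, a sodium channel of sensory neurons, gave 22.6 and 61.3, with replicate 1 below its limit. Of 14 genes of the Kv1 to Kv4 families 1 was, KCNC4 at 52.5 and 80.3. Over all 85 KCN genes of potassium channels 13 were above background, KCNK1, a 2-pore channel, giving the highest value at 579 and 670.5. Subunits of GABA receptors had 1 of 15 above background, nicotinic acetylcholine receptors 2 of 14 and the genes counted as ionotropic glutamate receptors 4 of 18. Those 4 include GRINA, which is not a receptor subunit. They also include GRIK5 and GRIN2D, which lay near the limits, at 78.3 and 47.2 and 46.2 and 42.1. The nicotinic subunit CHRNA5 gave 305 and 243, CHRNB2 gave 58.4 and 96.7, and GRID1, of the glutamate receptor family, gave 176 and 192 on 1 of its 3 probe sets. None of 11 aquaporins was, AQP3 being the highest at 36.8 and 38.6. Solute carriers, the large class of membrane transporters, had 188 of 342 (55%) above background, near the share of all genes. The brightest were the mitochondrial carriers SLC25A5 and SLC25A3 at 7174 and 9187 and 6819.8 and 9159, which supply ADP and phosphate for ATP synthesis. SLC38A2, an amino acid transporter, gave 2673 and 3958. On replicate 2 alone 3 aquaporins, 3 Kv genes and 1 sodium or calcium channel gene were above the limit, and on replicate 1 alone 1 of the last.

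Several families of differentiated tissues gave shares below that of all genes. None of 82 olfactory receptors was above background, though these were part of the reference that set the limit and so had to lie low. None of 8 UDP glucuronosyltransferases, enzymes of drug clearance in liver and kidney, was above it. Of 47 cytochrome P450 genes 13 were, with CYP2R1, a vitamin D 25-hydroxylase, at 172 and 232 and CYP1B1, of oestrogen and hydrocarbon metabolism, at 123 and 134. Matrix metalloproteinases had 3 of 22 above background, and serpins 5 of 30. SERPINE2, an inhibitor of thrombin on cell surfaces, gave 449 and 468. Of 23 MAGE genes 3 were above background, and these, MAGED1, MAGEF1 and MAGED2, are widely expressed members and not those of testis. Members not above background included MAGEE1, MAGEE2 and MAGEH1 beside MAGEC2 and MAGEB1, and the family was not sorted by tissue here. MAGED1 gave 1146 and 1465. Carbonic anhydrases had 4 of 12 above background, CA2, of the proximal tubule and of intercalated cells, at 409 and 407 and CA12 at 213 and 242.

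Not every probe set of a gene told the same. Of 10511 genes with at least 2 probe sets, all of them were above background for 2898, none for 3108 and some for 4505. The first rule counts such a mixed gene by its brightest probe set. Requiring at least 50% of the probe sets lowered the genes above background from 10823 to 9705. The transfected gene's family was above background in mock. IGF2BP1 gave 230.5 and 306.9 on one probe set and 188.1 and 93.2 on another, and its remaining probe set was not above background, at 32.9 and 4.16. IGF2BP2 gave 557 and 624 on its brightest probe set and 73.5 and 60.8 on the other. IGF2BP3 gave 1229.6 and 1242 on its brightest, and 1 of its 4 probe sets was not above background, at 23.6 and 16.4. They are the RNA-binding proteins IMP1, IMP2 and IMP3 of embryonic tissues and many tumours.

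Against the 4 arrays of the construct groups, the mock profile was nearly the same in which genes it holds. Of the 10823 genes above background in mock, 10121 (93.5%) were above the limit on all 6 arrays, 15 genes passed on all 4 construct arrays and on no mock array, and 31 on both mock arrays and on no construct array. A limma fit over all 6 arrays (mean of both construct groups minus mock, Benjamini-Hochberg adjustment over 27307 probe sets, threshold 0.05) called 2 probe sets, 0.00732% of those tested, and none from the gene lists described here. At an unadjusted p under 0.05 there were 346. Both called probe sets belong to HSPA6, a strictly stress-induced HSP70 gene. One gave 28.6 and 3.02 in mock, against 646 and 454 with hIMP1 wt and 1033 and 824 with hIMP1 Dmut. The groups did not overlap, and in mock this probe set was not above background on either array. The log2 difference was 5.07 ± 0.382 (SE), with an adjusted p of 0.00148 by limma. The other gave 4.65 ± 0.299 (SE), with an adjusted p of 0.000645 by limma, from 13.6 and 2.57 in mock. With mock values this low, both sizes depend on the constant added to the intensities before log2. A smaller constant, at the 10th percentile, gave 5.75 and 5.47, in the same order. A larger constant, at the median, gave 4.05 and 3.49. Both probe sets were called with each constant. Without hIMP1 Dmut replicate 1 the fit called 0 probe sets, with limma adjusted p of 0.0502 and 0.0825 for these 2, and 371 had an unadjusted p under 0.05; without hIMP1 Dmut replicate 2 it called 1, and without mock replicate 1 it called 4.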

How the data were processed

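The 6 samples were grouped by their descriptions, with replicate numbers from the titles. The authors deposited 1 intensity per probe set on a linear scale, per the series' value table; which software and scaling made it is not given in the sources used here. The trimmed mean (2% off each end) was 150.02 on both mock arrays, which points to 1 scaling factor for each array. Values were used as deposited, without the 62 control probe sets. Ratios of 3′ to 5′ control probe sets were 1.16 and 1.13 for GAPDH and 1.52 and 1.57 for ACTB on the mock arrays. Symbols came from the platform annotation: 41091 probe sets had 1 symbol, 1801 several and 11721 none, and 41037 of the first matched a RefSeq gene (GRCh38.p14). Probe sets with several symbols named no gene, and genes of the Y chromosome were left out of gene counts. The files name no genome build, and coordinates and sequences are RefSeq's.

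The background limit, the rule for genes and the lists are given with the results. The comparison with the construct arrays used limma 3.58.1 in R 4.3.3 on log2(intensity + 9.05), using lmFit and eBayes (trended prior), over probe sets at or above the median mean level; it left 3 residual degrees of freedom, and its p-values reflect the spread between arrays alone, which may be technical. Named genes were the 20 brightest, the 4 brightest of each list above background or, where none was, the highest, the lowest of families described gene by gene, called genes and the IGF2BP genes; others were chosen after their values were seen. The members, the 100 lists and these rules were chosen with earlier results of these data known.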

Additional observations from a re-analysis of the deposited data

Results flagged for a closer look

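Signals also came from probe sets that name no single gene and so entered no count of genes. Of 11721 probe sets without a gene symbol, 1936 (16.5%) were above background on both mock arrays. Of 1801 probe sets with several symbols, 934 (51.9%) were. What these signals come from was not tested.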

How the results depend on the processing

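The number of probe sets above background lay between 19022 (99th percentile as the limit) and 24847 (without mock replicate 1), against 22352. Genes above background lay between 8068 (without probe sets of suffix _x_at or _s_at, which measures fewer genes) and 11555 (without mock replicate 1), against 10823, and listed genes between 429 and 665, against 612. These counts stayed within 1.5 times. Of the 50 brightest genes 32 stayed with the median of a gene's probe sets and 38 without the suffix _x_at. The median log2 ratio of the mock arrays over the 50 was 0.34, and with quantile scaling it was -0.00991, near 0. Counts of 100 lists moved by over 1.5 times in 12 lists with the 90th percentile, 14 with the 99th, 16 with the rule of at least 50% of the probe sets, 3 with olfactory receptors alone as reference, 0 with quantile scaling, 4 without _x_at, 31 without _x_at and _s_at, 18 without mock replicate 1 and 10 without mock replicate 2. The causes were not tested. The limma fit called 2 probe sets in the comparison with the constructs, 1 with a filter at the 75th percentile, 1 without the trend, and from 0 to 4 with a single array left out. Replicate numbers are shared between groups, and with the replicate number as a block the fit called 4, the added genes being DNAJB1 and C11orf96 (limma adjusted p 0.0486 each); same-numbered arrays deviated together at r = 0.464, 0.2 and 0.217, and with 2 numbers these do not establish a pairing. With 2 arrays, a gene near the limit cannot be placed on either side of it, and a gene not above background may be expressed below it.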
